A study of Mus musculus with 6 samples.

Results

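The genes examined were *Megf10*, *Mertk*, *Axl*, *Gas6*, *Pros1*, *Mfge8* and *Gulp1*, 7 of the 21938 protein-coding genes of the GENCODE M21 annotation of mm10, which were chosen by name as the receptors, ligands and adaptor through which astrocytes engulf synapses and debris. A peak was assigned to a gene when its summit lay in the gene body or within 50 kb of it. The 6 peak lists held 1128 such peaks of 1116429 in all, and 220 of the 214328 sites at which the lists were compared. The libraries were ATAC-seq, in which Tn5 transposase inserts adapters into open DNA, of EGFP-positive nuclei sorted from primary visual cortex (V1) of P21 mice. All mice carried floxed alleles of the glucocorticoid receptor gene (GRfl/fl) and had received an AAV2/5 vector at P0-P1, which expressed Cre in 3 GR-KO libraries and the inactive ΔCre in 3 GR-Con libraries. Both vectors used the astrocyte promoter GfaABC1D, so Cre expression was directed to transduced astrocytes and not to other cells of V1, and each library was a pool of several animals.

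Astrocytes engulf weak synapses and dying cells by recognizing phosphatidylserine on their surface. MEGF10 is a transmembrane engulfment receptor with many EGF-like repeats, and MERTK and AXL are receptor tyrosine kinases of the TAM family, which reach phosphatidylserine through the soluble bridging ligands GAS6 and protein S (encoded by *Pros1*). MFGE8 bridges phosphatidylserine to integrins, and GULP1 is a cytoplasmic adaptor that binds the tails of engulfment receptors.

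The lists held 179462 to 198929 peaks each, called in each library separately, and read depth is unknown here. Promoter peaks (summit within 500 bp of an annotated start) of the 8 astrocyte markers *Aqp4*, *Slc1a3*, *Slc1a2*, *Aldh1l1*, *Gja1*, *Sox9*, *Aldoc* and *Gfap* were present in all 6 libraries, with a summed fold enrichment of 61.9 to 64.2 in GR-Con and 65.6 to 69.1 in GR-KO. Of 6 microglial markers, *Cx3cr1*, *Csf1r*, *Aif1* and *C1qa* had no promoter peak in any library, and the summed fold of the list was 11.2 to 16.1 in GR-Con and 14.1 to 19.7 in GR-KO. Of the other lists, 0 of 5 oligodendrocyte, 2 of 2 oligodendrocyte precursor, 3 of 5 neuronal and 1 of 3 endothelial markers had a promoter peak in every library. The precursor promoters (*Pdgfra* and *Cspg4*) had a summed fold of 29.1 to 33.6 in GR-Con and 30.9 to 33.8 in GR-KO, which overlaps. The summed fold of the endothelial list was 3.21 to 4.06 in GR-Con and 5.68 to 6.96 in GR-KO, with *Pecam1* at no peak in any library, and that of the neuronal list overlapped between the conditions. The astrocyte and endothelial sums did not overlap between the conditions. The summed −log10 p of the astrocyte promoters was 1647 to 1750 in GR-Con and 1801 to 1842 in GR-KO, the same direction as their summed fold. Ranked within each list, these promoters had a median percentile of −log10 p of 91.5 to 92.3 in GR-Con and 91.1 to 91.2 in GR-KO, which is the opposite direction to both sums. The precursor median percentile was 89.7 to 90.6 in GR-Con and 88.5 to 89.3 in GR-KO, with no overlap. The endothelial median percentile was 0 in all GR-Con libraries and 0 to 26.8 in GR-KO, which overlaps. The part of any of these lists in the results was not tested. At the targeted gene *Nr3c1*, the site of smallest p had a fold enrichment of 17.4, 17.4 and 14.3 in GR-Con and 6.68, 4.73 and 6.36 in GR-KO (adjusted p = 0.0346 by fold and 0.000601 by −log10 p, limma), although the position of the floxed part was not looked up, so this is no direct check of the deletion.

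Each deposited peak carries its fold enrichment relative to the signal around it in the same library, and the −log10 of the p-value of that enrichment. Neither is on a scale shared between libraries, so both were ranked within each list, turned into normal scores (a rank expressed in units of 1 SD of a normal distribution, with a library that had no peak tied lowest) and compared with limma over all 214328 sites. No site of the 7 genes passed an adjusted p of 0.05 by either measure: 0 of 220 were called lower and 0 of 220 higher by fold, where the genome-wide shares were 0.0523% and 0.0247%, and by −log10 p the counts were again 0 and 0, where the shares were 0.412% and 0.308%. At an unadjusted p under 0.05, limma gave 12 sites lower and 7 higher in GR-KO by fold, which is 5.45% and 3.18% of the 220 beside 5.35% and 5.48% of all sites. By −log10 p it gave 16 lower and 8 higher, which is 7.27% and 3.64% beside 5.43% and 5.95%. The 16 include sites with no GR-KO peak, which were kept through GR-Con alone, so their direction was fixed by that. Among the 111 sites with a peak in all 6 libraries, 5 were lower and 3 higher by −log10 p. These shares lay below the 5.93% and 6.66% of all such sites. By fold, 8 of the 111 were lower (7.21%, against 5.58%) and 4 higher, a share below 5.81%. The median score difference (GR-KO minus GR-Con) over the 220 sites was 0.039 by fold and −0.011 by −log10 p, beside 0.018 and 0.0076 over all sites. Overlap of the 2 conditions was judged on the deposited values, which are not scaled between libraries, with a missing peak set to 0. A site with a peak in every GR-Con and no GR-KO library thus counted as lower. Every GR-KO library lay below every GR-Con library at 26 of the 220 sites by −log10 p (11.8%, against 11.1% of all sites). The conditions lay apart in the opposite direction at 5 (2.27%, against 5.21%). By fold these counts were 20 (9.09%, against 8.65%) and 9 (4.09%, against 5.87%). A comparison of 3 with 3 libraries allows no exact permutation p below 0.1 for one site, and in sorted nuclei a site open in fewer nuclei and a site less open in each nucleus cannot be told apart.

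**Figure D1:**
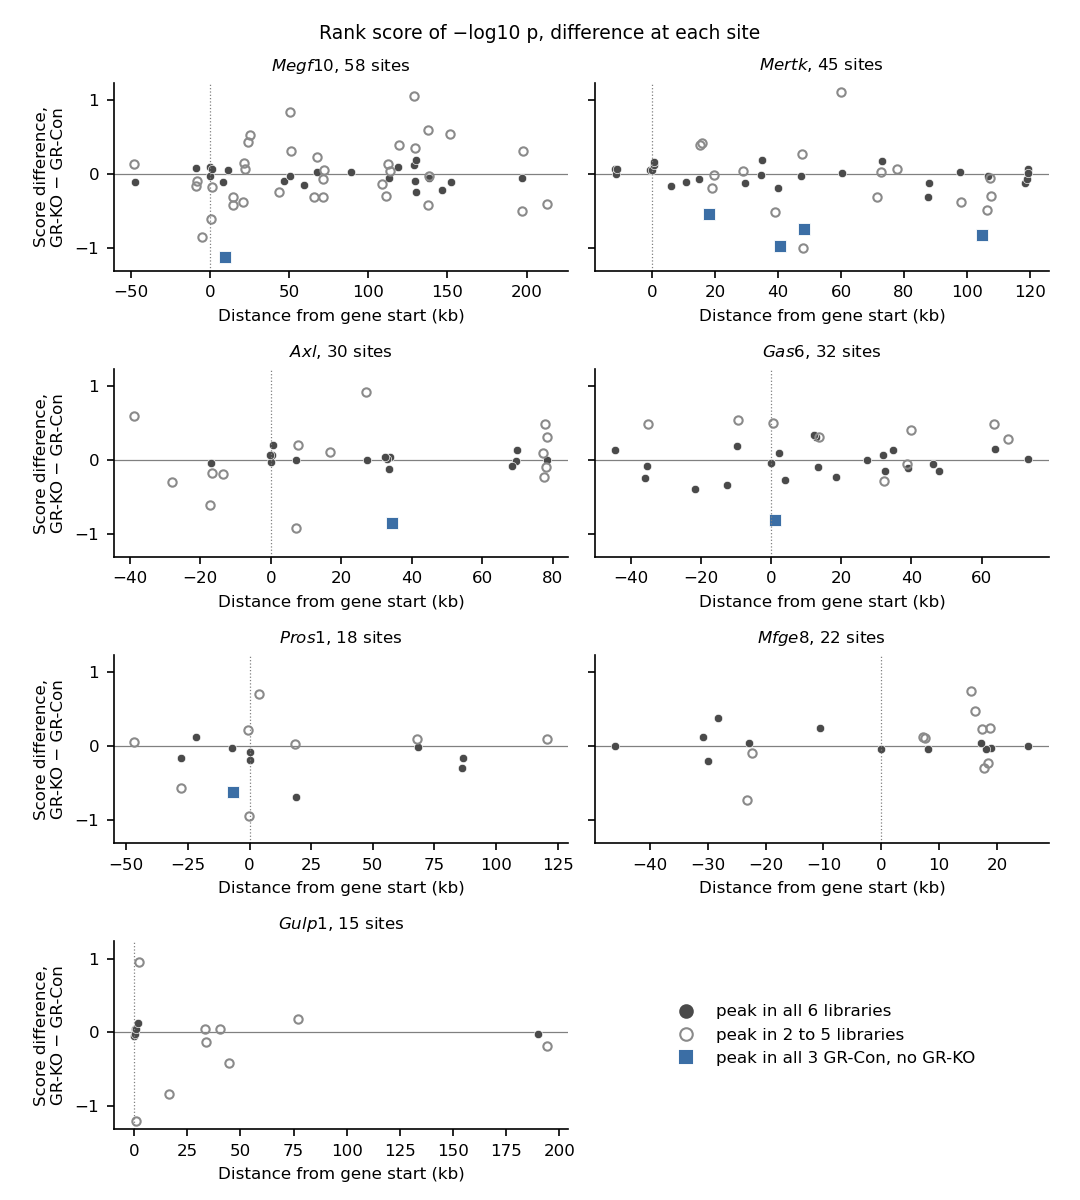
Difference in the normal score of −log10 p between GR-KO and GR-Con (y axis, positive where GR-KO was higher) at each of the 220 sites, by distance in kb from the start of the gene in the direction of transcription (x axis), with 1 panel per gene. Filled circles have a peak in all 6 libraries, of which the one farthest from 0 is the *Pros1* site at −0.68, open circles have one in 2 to 5 libraries, and the 8 blue squares mark those seen as a peak in every GR-Con and no GR-KO library.

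At the promoters, all 7 genes had a peak in all 6 libraries, and the values of GR-Con and GR-KO libraries overlapped at each of the 7. The site compared was the strongest by fold at an annotated start of each gene, and the 7 genes held 21 sites near such starts. A *Megf10* site near an alternative start, with no GR-KO peak, is given below. The 7 sites compared lay within 135 bp of the annotated gene start, except that of *Gulp1*, which lay 1034 bp into the gene and 52 bp from an alternative start. The smallest adjusted p over the 7 promoter sites was 0.514 by fold and 0.656 by −log10 p, so none was called.

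The promoters of the receptors were among the stronger peaks of each list. The *Mertk* promoter peak, centred 128 bp upstream of the start (chr2:128698628-128699028), had a −log10 p of 349, 357 and 351 in GR-Con 1, 2 and 3, against 408, 314 and 397 in GR-KO 1, 2 and 3. The *Axl* promoter peak, 43 bp upstream of the start (chr7:25788548-25788948), had a −log10 p of 531, 483 and 404 in GR-Con against 536, 386 and 502 in GR-KO, and was the strongest site of its own locus. For *Mertk* the GR-KO libraries lay on both sides of the 3 GR-Con libraries, and for *Axl* they spanned a wider range than the GR-Con libraries. The *Megf10* promoter peak on chromosome 18, 135 bp upstream of the start, had a −log10 p of 306, 367 and 296 in GR-Con against 362, 291 and 292 in GR-KO.

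Among the ligands, *Gas6* and *Pros1* had the weakest promoter peaks of the 7 genes by −log10 p and *Mfge8* one of the strongest. *Gas6* (chr8:13494306-13494706) had a −log10 p of 101, 115 and 85.2 in GR-Con against 95.7, 77.6 and 87.6 in GR-KO. *Pros1* (chr16:62854121-62854521) had a −log10 p of 105, 131 and 152 in GR-Con against 91.2, 119 and 104 in GR-KO, and its score differed by −0.08 (standard error 0.0668) with an adjusted p of 0.656 in limma. The conditions overlapped at both of these promoters. The *Mfge8* promoter (chr7:79148904-79149304) stood at percentile 98.7 ± 0.147 of −log10 p in the GR-Con lists and 98.6 ± 0.307 in the GR-KO lists (SD, n = 3 each). *Gulp1* (chr1:44552345-44552745) had a −log10 p of 289, 245 and 242 in GR-Con against 292, 259 and 258 in GR-KO.

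**Figure D2:**
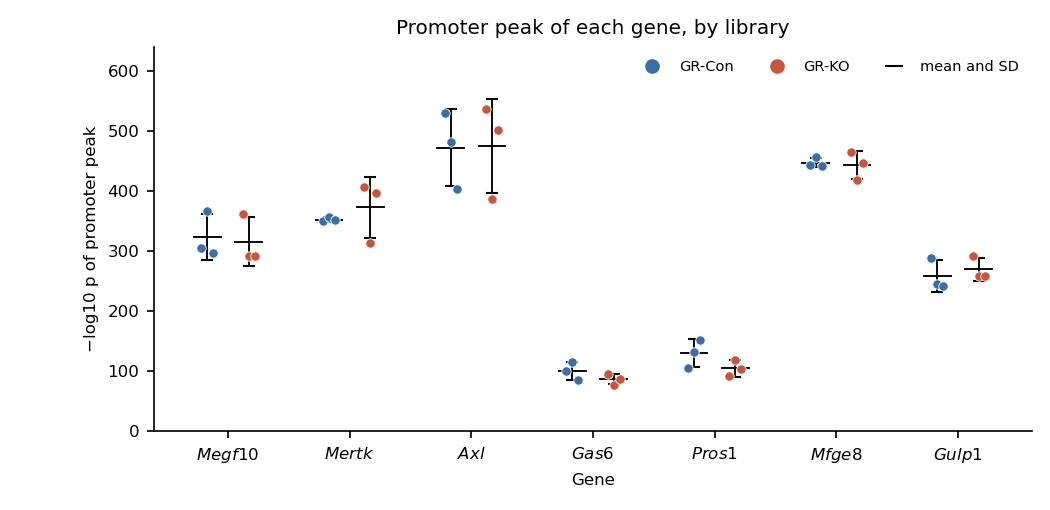
The −log10 p of the promoter peak (y axis, as deposited) of each of the 7 genes (x axis) in the 3 GR-Con (blue) and 3 GR-KO (red) libraries, drawn in replicate order from left to right, with the mean and SD in black. The conditions overlap at every promoter, and *Gas6* and *Pros1* lie lowest, between 77.6 and 152.

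Away from the promoters, the 3 sites of smallest p among the 220, by fold and by −log10 p alike, were near the 3 ligand genes. The site of smallest p by both measures in *Gas6* lay between genes, 12552 bp upstream of the start (chr8:13506842-13507242), and was lower in every GR-KO library. Its fold enrichment was 13.4, 13.2 and 9.87 in GR-Con 1, 2 and 3 and 6.68, 7.16 and 8.05 in GR-KO 1, 2 and 3, and its −log10 p was 59.6, 57.5 and 41.1 against 20.8, 22.4 and 27.2. The mean fold was 12.2 ± 1.98 in GR-Con and 7.30 ± 0.692 in GR-KO (SD, n = 3 each). The score difference was −0.43 (standard error 0.086) by fold and −0.33 (standard error 0.0893) by −log10 p, with adjusted p-values of 0.130 and 0.147 from limma, so the site was not called. When only the 115879 sites with a peak in all 6 libraries were fitted, the adjusted p by −log10 p was 0.0462 (0.0462 to 0.360 over all alternatives).

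A second upstream site of *Gas6*, named after its values were seen, lay 21685 bp from the start, between genes (chr8:13515975-13516375), and was likewise lower in every GR-KO library. Its fold was 9.87, 11.3 and 8.88 in GR-Con and 6.14, 4.92 and 6.74 in GR-KO (adjusted p = 0.163 by fold and 0.166 by −log10 p in limma). In the fit restricted to the 115879 sites of all 6 libraries, its adjusted p by −log10 p was 0.0452 (0.0452 to 0.358 over all alternatives). A further site of *Gas6*, in an intron 12151 bp into the gene and also named after its values were seen, lay the other way, with fold values of 4.65, 4.31 and 3.11 in GR-Con against 6.44, 5.35 and 5.14 in GR-KO (adjusted p = 0.403). The strongest site of the locus, 44493 bp upstream, had a −log10 p of 428, 461 and 407 in GR-Con against 517, 491 and 443 in GR-KO, with overlapping values.

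In *Pros1*, the site of smallest p by both measures was intronic, 18648 bp into the gene (chr16:62872755-62873155). Its fold was 8.32, 9.55 and 6.42 in GR-Con and 4.33, 3.79 and 2.99 in GR-KO, and its −log10 p was 28.4, 40.8 and 20.5 against 9.91, 7.51 and 4.87. The lowest GR-Con library thus stood above the highest GR-KO library by both measures, and the peaks averaged 820 bp wide in GR-Con and 494 bp in GR-KO. The score difference was −0.73 (standard error 0.149) by fold and −0.68 (standard error 0.181) by −log10 p, with adjusted p-values of 0.134 and 0.137. Over sites with a peak in all 6 libraries the adjusted p by −log10 p was 0.00992 (0.00992 to 0.372 over all alternatives). *Pros1* had the highest share of the 7 genes of sites with every GR-KO library below every GR-Con library, and is given here for that reason. The choice itself favours an excess over all sites in the shares that follow, so they add no support. At 5 of its 18 sites (27.8%) every GR-KO library had a lower deposited fold than every GR-Con library and at 0 the reverse. The shares of all sites were 8.65% and 5.87%. By −log10 p the counts were also 5 and 0, where the shares were 11.1% and 5.21%. Both counts of 5 include the site 6874 bp upstream, which had no GR-KO peak and so counted as lower. By fold the counts lower and higher were 3 and 2 of 58 for *Megf10*, 4 and 2 of 45 for *Mertk*, 1 and 0 of 30 for *Axl*, 6 and 2 of 32 for *Gas6*, 1 and 2 of 22 for *Mfge8* and 0 and 1 of 15 for *Gulp1*. At an unadjusted p under 0.05, 4 of the 18 were lower by fold (22.2%, against 5.35% of all sites) and 2 by −log10 p (11.1%, against 5.43%).

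The *Mfge8* site of smallest p lay between genes 10587 bp upstream of the start (chr7:79159447-79159847) and was higher in every GR-KO library. Its fold was 15.9, 15.2 and 12.2 in GR-Con and 19.9, 18.6 and 19.6 in GR-KO, and its −log10 p was 75.2, 71.2 and 56.1 against 107.9, 93.9 and 102.9. Of the GR-Con libraries, GR-Con 3 had the lowest fold at this *Mfge8* site, at that of *Gas6* and at that of *Pros1*. The score difference was 0.43 (standard error 0.0764) by fold, with an adjusted p of 0.106, the smallest by fold of the 220 sites. By −log10 p the difference was 0.25 (standard error 0.0635, adjusted p = 0.114), and over sites with a peak in all 6 libraries the adjusted p was 0.0312 (0.0312 to 0.460 over all alternatives). The strongest site of the *Mfge8* locus, between genes 45935 bp upstream, stood at percentile 99.4 of −log10 p in both conditions (± 0.120 in GR-Con and ± 0.138 in GR-KO, SD, n = 3 each).

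The sequences at these 3 sites of the ligands are shown because they had the smallest p-values of the 220, read from the plus strand of the GRCm38 (mm10) genome with 100 bases to each side of the site centre. Capitals mark an NFI palindrome (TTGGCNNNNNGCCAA, at most 1 mismatch) and an AP-1 motif (TGANTCA), and the sites of *Pros1* and *Mfge8* held none of the motifs searched.
Gas6 12552 bp upstream: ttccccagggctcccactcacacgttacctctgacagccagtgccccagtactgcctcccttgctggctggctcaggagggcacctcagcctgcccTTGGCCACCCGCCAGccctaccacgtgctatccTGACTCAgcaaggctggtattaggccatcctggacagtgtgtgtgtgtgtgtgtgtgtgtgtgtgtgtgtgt
Pros1 18648 bp into the gene: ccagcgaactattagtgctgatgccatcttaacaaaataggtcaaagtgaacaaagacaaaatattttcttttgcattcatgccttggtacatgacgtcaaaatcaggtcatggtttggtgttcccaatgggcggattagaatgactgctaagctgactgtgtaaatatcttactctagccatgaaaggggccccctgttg
Mfge8 10587 bp upstream: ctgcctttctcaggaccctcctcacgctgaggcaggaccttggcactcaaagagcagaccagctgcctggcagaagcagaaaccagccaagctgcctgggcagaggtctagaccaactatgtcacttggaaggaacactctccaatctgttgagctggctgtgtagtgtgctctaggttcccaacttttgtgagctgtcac

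Of the receptors, *Megf10* had 58 sites, the most of the 7 genes, and none was called. The site of smallest p by fold, between genes 47293 bp upstream of the start, had a fold of 25.7, 26.0 and 25.5 in GR-Con against 22.0, 22.1 and 22.1 in GR-KO. The conditions lay apart, with replicates close to each other (25.7 ± 0.220 against 22.1 ± 0.0585, SD, n = 3 each), and the adjusted p was 0.138 by fold and 0.462 by −log10 p. The strongest *Megf10* site, in an intron 89259 bp into the gene, had a fold of 26.6, 28.5 and 27.0 in GR-Con against 29.0, 29.0 and 29.2 in GR-KO (adjusted p = 0.546). The site of smallest p by −log10 p lay 9555 bp into the gene and 141 bp from an alternative start. It had peaks of 2.68, 3.02 and 3.24 fold in the GR-Con libraries but none in GR-KO, and by −log10 p its score differed by −1.13 (standard error 0.314, limma adjusted p = 0.159). The site was kept through its GR-Con peaks alone, which fixed its direction, so this test adds nothing to the absence of GR-KO peaks.

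At *Mertk*, the site of smallest p by both measures was intronic, 59984 bp into the gene (chr2:128758740-128759140), with a summit in 1 GR-Con and 3 GR-KO libraries. Its fold was 2.82 in GR-Con 2 and 4.93, 7.06 and 3.62 in GR-KO 1, 2 and 3, with adjusted p-values of 0.189 by fold and 0.220 by −log10 p. A peak interval covered the centre in all 6 libraries, so the difference was in where a separate summit was called and not in whether the position lay in a peak. The strongest site of the *Mertk* locus lay 138 bp from the start of the neighbouring gene *Tmem87b* and had a −log10 p of 511, 471 and 470 in GR-Con against 465, 502 and 460 in GR-KO.

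At *Axl*, the site of smallest p by fold, in an intron 26999 bp into the gene (chr7:25761506-25761906), had a summit in GR-Con 3 (fold 4.62) and in GR-KO 1, 2 and 3 (fold 5.04, 4.11 and 4.81), with an adjusted p of 0.438. Its centre too lay inside a peak interval in all 6 libraries. *Gulp1* had 15 sites, the fewest. The one of smallest p by −log10 p, 802 bp into the gene and 284 bp from an alternative start (chr1:44552113-44552513), had a summit in GR-Con 1, 2 and 3 (−log10 p 53.4, 38.9 and 50.7) and in GR-KO 2 (63.1). GR-KO 2 stood above every GR-Con library at this *Gulp1* site, and the other 2 GR-KO libraries had no separate summit although a peak interval covered the centre. Its adjusted p of 0.273 by −log10 p became 0.00996 when GR-KO 2 was left out (0.00996 to 0.544 over all alternatives). The *Gulp1* site of smallest p by fold, 2166 bp into the gene, had a fold of 2.01 in GR-Con 1 alone and of 2.55, 2.01 and 2.67 in GR-KO (adjusted p = 0.475).

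**Figure D3:**
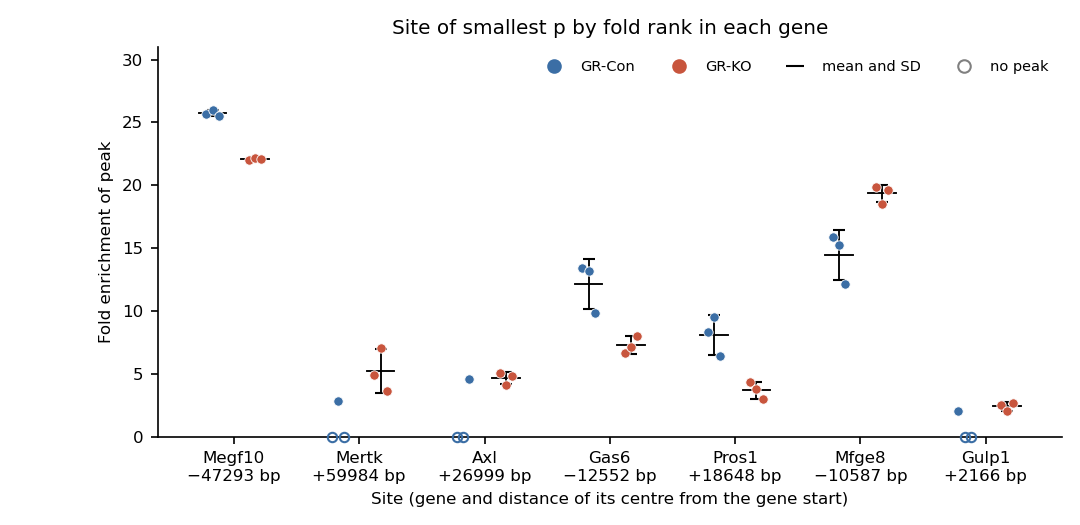
Fold enrichment (y axis, as deposited) at the site of smallest p by fold rank in each of the 7 genes (x axis, named by the distance of the site centre from the gene start) in GR-Con (blue) and GR-KO (red) libraries, in replicate order, with open circles at 0 where a library had no summit at the site (marked no peak) and the mean and SD in black where all 3 had one. At *Mertk* and *Axl* a peak interval still covered the site centre in all 6 libraries. The conditions lie apart at 6 of the 7 sites, lower in GR-KO at *Megf10*, *Gas6* and *Pros1* and higher in GR-KO at *Mertk*, *Mfge8* and *Gulp1*, and overlap at *Axl* (8.65% and 5.87% of all sites lie apart in these directions). The sites were picked for their smallest p in each gene, which favours lying apart, and none passed an adjusted p of 0.05.

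By presence of a peak, 111 of the 220 sites (50.5%) had one in all 6 libraries, against 54.1% of all sites. A peak in every GR-Con and no GR-KO library was seen at 8 sites (3.64%), where the share of all sites was 1.24%, and the reverse at 0, where the share was 0.677%. *Mertk* held 4 of the 8, and *Megf10*, *Axl*, *Gas6* and *Pros1* held 1 each. All 8 were weak peaks, with a fold of 1.64 to 3.26, and their −log10 p of 2.80 to 13.7 lay under the median of every list (16.0 to 17.7). No GR-KO peak interval covered the centre of any of them, and GR-Con intervals covered it in all 3 libraries at 6 of the 8, in 2 at the *Mertk* site 18017 bp into the gene and in 1 at the *Gas6* site. Because these sites were picked for the absence of GR-KO peaks, their direction was fixed by that choice, and a test of them adds nothing to the count.

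The 3 intronic sites of *Mertk* lay 18017, 40511 and 48072 bp into the gene, with a fold of 2.13, 1.95 and 1.87 at the first, 2.15, 1.90 and 1.79 at the second and 3.26, 2.41 and 1.95 at the third in GR-Con 1, 2 and 3. The fourth *Mertk* site lay 104717 bp from the start, between genes downstream (fold 2.79, 2.74 and 2.61). The *Gas6* site was intronic, 937 bp into the gene (fold 2.26, 2.17 and 2.39). The sites near *Axl* and *Pros1* lay at the promoters of the neighbouring genes *Hnrnpul1* (fold 1.64, 1.79 and 1.70) and *Arl13b* (fold 2.07, 2.11 and 1.64). The *Pros1* site had the same GR-Con peak widths (918, 947 and 933 bp) as the strongest site of the locus, 7220 bp upstream of *Pros1*. It was thus a side summit of the *Arl13b* promoter peak, which was present in all 6 libraries. That peak had a fold of 25.7, 25.3 and 23.3 in GR-Con against 25.1, 26.2 and 27.8 in GR-KO, with overlapping values. The count of 8 fell to 5 with a q-value limit of 0.01, 5 with lists of equal length and 4 when libraries were matched by an overlap of over 200 bp. With fewer libraries required it was 13 without GR-Con 1 and 14 without GR-KO 2, and the reverse count was then 2 and 4. The share of all sites with this pattern was not taken under these settings. The counts therefore do not show whether the excess over 1.24% remained.

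Counted over each locus (the gene body and 50 kb to each side), the number of peaks did not pass the test for any of the 7 genes. Over 19385 protein-coding loci with a peak, limma on log2(peaks per 100000 peaks of the list + 1) called 0 loci at an adjusted p of 0.05 (0% lower and 0% higher). At an unadjusted p under 0.05 it gave 3.63% lower and 4.57% higher, and none of the 7. The largest departures were fewer peaks in GR-KO at *Pros1*, with 18, 14 and 16 peaks in GR-Con and 14, 11 and 13 in GR-KO (log2 difference −0.25, standard error 0.121, adjusted p = 0.642), and at *Mertk*, with 44, 46 and 46 against 43, 37 and 36 (log2 difference −0.17, standard error 0.0796, adjusted p = 0.633). Scaled to list length, the conditions lay apart at 0 of the 7 loci, where over all loci they lay apart at 4.48% with fewer peaks in GR-KO and 11.5% with more. *Gas6* had 32, 33 and 32 peaks in GR-Con and 31, 33 and 30 in GR-KO, and *Megf10* 39, 51 and 51 against 41, 47 and 45. *Axl* had 25, 24 and 29 against 20, 23 and 24, *Mfge8* 22, 16 and 21 against 18, 19 and 18, and *Gulp1* 12, 11 and 12 against 10, 13 and 8.

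**Figure D4:**
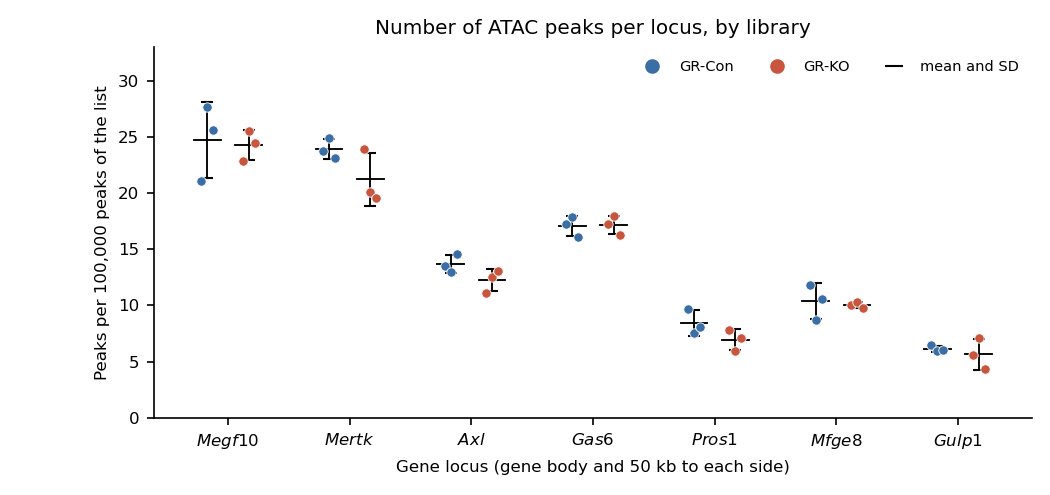
Number of ATAC peaks in each locus per 100000 peaks of the library's list (y axis) for the 7 genes (x axis, gene body and 50 kb to each side) in GR-Con (blue) and GR-KO (red) libraries, in replicate order, with the mean and SD in black. *Megf10* and *Mertk* hold the most peaks and *Gulp1* the fewest, and the conditions overlap at every locus.

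The glucocorticoid receptor (GR) binds DNA as a dimer at a palindrome, and the windows of 100 bp to each side of each site centre were searched on both strands for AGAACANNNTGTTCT with at most 2 mismatches in its fixed bases. It was found at 7 of the 220 sites (3.18%, exact 95% interval 1.29 to 6.45%, counting error only), against 1.77% of all sites. With 200 bp to each side the shares were 3.64% and 3.37%. *Mertk*, *Axl* and *Pros1* held 2 each, *Megf10* held 1, and *Gas6*, *Mfge8* and *Gulp1* held 0 in these windows. The hexamer AGAACA, which is one arm of the palindrome and is contained in an exact match to it, was found at 11.4% of the 220 sites and 16.9% of all sites, the NFI palindrome at 1.82% and 1.38%, and the AP-1 motif at 6.36% and 6.02%. A match of letters is a description and does not show that a factor was bound.

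Over the genome, the 3783 sites with the GR palindrome had an unadjusted p under 0.05 and a lower −log10 p rank in GR-KO at 21.9%, against 5.13% of the 210545 sites without it, and 5.89% were called lower. Of the 7 sites of these genes with the palindrome, 3 had an unadjusted p under 0.05 and were lower by −log10 p, 0 were higher, and 0 were called. By fold, 1 of the 7 was lower at an unadjusted p under 0.05 (14.3%), against 20.6% of all sites with the palindrome, and this was the *Megf10* site. The 3 by −log10 p were the *Megf10* site 9555 bp into the gene given above and an intronic site each of *Mertk* and *Axl*. The *Megf10* and *Axl* sites had no summit in GR-KO and were kept through GR-Con alone. Their direction was fixed by that, so they add nothing to the comparison with all sites. The *Mertk* site lay 47758 bp into the gene (chr2:128746514-128746914) and had a fold of 2.65, 6.43 and 4.97 in GR-Con against 3.91 in GR-KO 2 only, where no peak interval of GR-KO 1 or 3 covered the centre (adjusted p = 0.320 by −log10 p). The *Axl* site lay 7312 bp into the gene (chr7:25781193-25781593), whose fold was 4.93 and 4.94 in GR-Con 2 and 3, with no separate summit in the other 4 libraries, although peak intervals covered its centre in all 6 (adjusted p = 0.417).

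At the other sites with the palindrome the values of the conditions overlapped. A strong intronic site of *Mertk*, 10558 bp into the gene (chr2:128709314-128709714), had a −log10 p of 348, 398 and 307 in GR-Con against 300, 308 and 328 in GR-KO (adjusted p = 0.570). A site 33442 bp from the start of *Axl*, 506 bp from the start of *Hnrnpul1*, had a −log10 p of 371, 364 and 312 against 319, 321 and 275 (adjusted p = 0.460). The *Pros1* sites 46706 and 586 bp upstream had a summit in 4 and 2 of the 6 libraries (adjusted p = 0.979 and 0.881).
The windows of 5 of these sites are shown with the palindrome in capitals, read in the same way as those above, since they are where the GR motif falls within peaks of these genes.
Mertk 10558 bp into the gene: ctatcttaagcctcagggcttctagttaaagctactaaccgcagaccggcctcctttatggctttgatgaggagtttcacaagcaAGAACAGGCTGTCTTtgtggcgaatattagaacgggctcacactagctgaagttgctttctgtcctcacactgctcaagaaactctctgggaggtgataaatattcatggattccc
Mertk 47758 bp into the gene: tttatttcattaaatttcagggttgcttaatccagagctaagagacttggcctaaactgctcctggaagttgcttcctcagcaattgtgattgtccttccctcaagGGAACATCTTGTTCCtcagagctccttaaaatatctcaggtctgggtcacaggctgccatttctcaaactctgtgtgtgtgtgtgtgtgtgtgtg
Axl 7312 bp into the gene: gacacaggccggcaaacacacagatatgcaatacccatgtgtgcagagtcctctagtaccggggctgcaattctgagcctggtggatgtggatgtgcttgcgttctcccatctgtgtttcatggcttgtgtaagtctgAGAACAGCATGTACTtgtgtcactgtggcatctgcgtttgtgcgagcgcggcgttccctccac
Pros1 586 bp upstream, chr16:62853621-62853821: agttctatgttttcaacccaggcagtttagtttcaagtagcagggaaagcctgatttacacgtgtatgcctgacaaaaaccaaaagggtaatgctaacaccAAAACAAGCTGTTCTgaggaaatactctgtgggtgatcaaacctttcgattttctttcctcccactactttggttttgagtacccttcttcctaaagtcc
Axl 33442 bp from the start, chr7:25755163-25755363: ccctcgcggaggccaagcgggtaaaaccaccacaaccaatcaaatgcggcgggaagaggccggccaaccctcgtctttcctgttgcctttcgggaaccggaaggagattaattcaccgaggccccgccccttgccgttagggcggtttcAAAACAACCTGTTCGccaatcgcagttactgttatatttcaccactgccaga

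By place, 21 of the 220 sites lay at a promoter of the gene itself, 5 in its exons, 102 in its introns, 39 upstream and 53 downstream. Classed against all genes, 17.7% lay at a promoter (17.8% of all sites), 5.45% in an exon (4.31%), 51.8% in an intron (43.0%) and 25.0% between genes (34.9%). *Megf10* had 43 of its 58 sites in its own introns and *Mertk* 28 of 45, whereas 12 of the 22 *Mfge8* sites were intergenic. The median GC content of the central windows, 100 bp to each side, was 52.0% over the 220 sites and 51.2% over all sites, from 46.5% for *Megf10* to 56.2% for *Axl*. The sites at the genes' own promoters had a median GC content of 64.2% and those in their introns 48.8%. The 21 promoter sites stood higher in the lists than the 102 intronic ones, with a median percentile of −log10 p of 73.3 against 35.2, and 16 of the 21 against 43 of the 102 had a peak in all 6 libraries.

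For the wider machinery, 19 further genes of phagocytosis (*Tyro3*, *Adgrb1*, *Megf11*, *Pear1*, *Lrp1*, *Itgav*, *Itgb5*, *Itgb3*, *Jmjd6*, *Abca1*, *Abca7*, *Elmo1*, *Elmo2*, *Dock1*, *Rac1*, *Crk*, *Crkl*, *Xkr8* and *Lgals3*) held 688 sites. By fold, limma called 0 of them, with 42 lower (6.10%) and 22 higher (3.20%) at an unadjusted p under 0.05, beside 5.35% and 5.48% of all sites. By −log10 p it called 2 lower and 0 higher of the 688, a share near that of all sites (0.412% and 0.308%). It gave 39 lower (5.67%) and 31 higher (4.51%) at an unadjusted p under 0.05, beside 5.43% and 5.95% of all sites. A peak in all of GR-Con and none of GR-KO was seen at 7 of these sites (1.02%) and the reverse at 2 (0.291%), beside 1.24% and 0.677% of all sites.

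The first called site lay in the window of *Itgav*, which encodes the alpha-v integrin subunit through which MFGE8 is recognized, but within an intron, 17696 bp from the start of the nearest gene *Fam171b*. It had a −log10 p of 68.2, 52.2 and 47.9 in GR-Con against 5.92 in GR-KO 3, with no peak in GR-KO 1 and 2 (adjusted p = 0.00818). The second lay in an intron within the window of *Dock1*, which encodes a guanine nucleotide exchange factor that activates RAC1 during engulfment. Its −log10 p was 110, 115 and 71.1 in GR-Con against 14.6, 4.95 and 29.1 in GR-KO (adjusted p = 0.0340), with no overlap between the conditions.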

How the data were processed

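The authors processed reads with the ENCODE ATAC-seq pipeline (2.2.0, peak p threshold 0.01, multimapping 0) and deposited for each library a list of mm10 peaks holding a score (10 times −log10 p, capped, not used), the fold (a ratio over local background) and the −log10 of the p-value and q-value of each peak. The study's test on read counts could not be run on peak lists. Here summits of all lists within 200 bp of a stronger summit were joined to 1 site, and a site was kept if 2 or more libraries had a peak there. Within-library ranks were compared by the two-sided test of limma 3.58.1 (R 4.3.3), using a variance trend and no replicate block, and p-values were adjusted over all sites by Benjamini-Hochberg. Genes are from GENCODE M21 and sequences from GRCm38, read with pysam 0.24.0 in Python 3.11.15. Between 44.1 and 51.0% of the peaks of a list shared an interval with another summit. The steps were checked on simulated data. Named sites are, for each gene, its promoter site, its strongest site, the sites of smallest p by each measure and sites with a peak in every library of one condition only; others are said to be named after their values were seen. Of the 1128 peaks, 1057 lay within 200 bp of a kept site. The genes and lists were chosen with earlier results of these data known.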

Additional observations from a re-analysis of the deposited data

How the results depend on the processing

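Peak lists carry no read counts, so depth could not be compared and a weak site with no peak may be a site under the calling threshold. None of the 7 promoter sites compared above (1 per gene, the strongest by fold at an annotated start) was called under any alternative. Other sites near a start of the genes were, namely that of *Megf10* 9555 bp into the gene without a variance trend and that of *Gulp1* near 802 bp without GR-KO 2. The direction was followed for the sites of smallest p, the sites with a peak in GR-Con only, the *Gas6* site 21685 bp upstream and the peak numbers of *Mertk*, *Axl* and *Pros1*, and none of these changed direction; the promoter and strongest sites were not followed in this way. With a library left out, 221 comparisons stayed on the same side of an adjusted p of 0.05 and 1 newly passed it, and under the other settings 273 stayed and 11 newly passed. Sites absent from an alternative (weak sites under the overlap rule, and those without a peak in all 6 libraries) gave no value there.

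Genome-wide counts moved more. The counts of sites lower and higher in GR-KO by fold (112 and 53) and by −log10 p (882 and 661) were 445, 242, 497 and 282 with an overlap of over 200 bp, 243, 173, 1964 and 2027 for sites with a peak in all 6 libraries, 1397, 1007, 1432 and 1018 without a variance trend and 5, 3, 362 and 196 at an adjusted p of 0.01. With lists of equal length 34 were higher by fold, and with at least 3 libraries 82. Without 1 library they were 0 to 3, 0 to 1, 107 to 501 and 156 to 290, and fewer samples entered. Replicate numbers did not pair the samples (correlation of deviations −0.00084 to 0.024), and with a replicate block the counts were 0, 0, 345 and 167, and 0 sites of the 7 genes were called.

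At the 7 genes, 3 of 111 sites were called lower (2.70%, against 1.69% of all sites) and 1 higher (0.901%, against 1.75%) by −log10 p among sites with a peak in all 6 libraries. Without a variance trend 2 of 220 were called lower by fold (0.909%, against 0.652%) and 5 by −log10 p (2.27%, against 0.668%), all of them sites with no GR-KO peak whose direction that choice fixed, and without 1 library 0 to 1 were called lower by −log10 p. Sites whose peak was in every GR-Con and no GR-KO library (8) were 5 with a q-value limit of 0.01, 5 with lists of equal length and 4 with an overlap of over 200 bp. Without 1 library they were 9 to 14, and the reverse (0) was then 1 to 4. Where a peak interval covering the centre counted as a peak, chosen after seeing the data, they were 7 and 0. The shares of all sites with these patterns were not taken under these settings, so no excess over all sites can be read from these counts. With lists of equal length, 13 loci genome-wide differed in peak number, none of the 7. Widening the motif window to 200 bp gave the GR palindrome at 3.64% of the 220 sites against 3.37% of all sites, so that the gap between 3.18% and 1.77% was mostly lost, the GR hexamer at 25.9% against 29.97% and AP-1 at 10.9% against 11.04%.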
